A study of Homo sapiens with 10 samples.

Results

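This report describes 10 transcription factor genes of the rhombic lip and the cerebellar lineages in CRX knockdown libraries of medulloblastoma cells: ATOH1, EOMES, LMX1A, LMX1B, BARHL1, PAX6, ZIC1, ZIC2, MEIS1 and UNCX. They were chosen by name, and each was matched through its Ensembl identifier, so 10 of 57820 gene identifiers in the count files are members. The series holds poly(A) RNA sequencing of D425 and HD-MB03, established lines of Group 3 medulloblastoma, a childhood tumour of the cerebellum. D425 had 3 libraries labelled shCRX, 2 of parental cells and 1 of cells with the empty vector. HD-MB03 had 2 libraries labelled shCRX, 1 parental and 1 empty-vector library. The shCRX cells were stable polyclonal populations with a doxycycline-inducible lentiviral hairpin against CRX, a homeobox factor of photoreceptors. The labels give 72 h of doxycycline (4 µg/ml) for every library, parental ones included. They name neither the hairpin of a given library nor separate cultures behind the libraries of a group. P-values therefore measure only the spread between these libraries, which may be technical.

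The rhombic lip is the dorsal edge of the embryonic hindbrain, where the roof plate meets the neural tube, and it gives rise to the glutamatergic neurons of the cerebellum. ATOH1, a basic helix-loop-helix factor, marks its granule neuron progenitors, and EOMES, a T-box factor, marks the unipolar brush cells that come from it. LMX1A and LMX1B are LIM-homeodomain factors of the roof plate and its border, and BARHL1 is a homeodomain factor of migrating granule cell precursors. PAX6 is a paired-box factor of the granule lineage, and ZIC1 and ZIC2 are zinc finger factors of dorsal neural progenitors. MEIS1 is a homeodomain cofactor of the TALE class that granule cells also use, and UNCX is a paired-type homeodomain factor of somites and of parts of the nervous system. GABAergic neurons of the cerebellum come instead from the ventricular zone, which uses other factors.

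Several features of the libraries touch the results. Counted reads ranged from 3.64 to 9.53 M in D425 shCRX, from 11.36 to 18.06 M in D425 controls, and were 14.55 and 14.26 M in HD-MB03 shCRX against 2.08 and 1.96 M in HD-MB03 controls. Between 26.4% and 30.9% of reads were not aligned in the HD-MB03 controls, against 4.54% to 7.99% in the other libraries. Library numbers in the deposited files fall into a low set, with D425 shCRX and HD-MB03 controls, and a high set, with D425 controls and HD-MB03 shCRX, and in each line the set cannot be told apart from the arm. CRX itself was at 20.3, 20.9 and 25.3 CPM (counts scaled to a common library total, with TMM, a trimmed mean of ratios between libraries) in D425 shCRX, against 47.4, 29.6 and 64.8 CPM in D425 controls. In HD-MB03 it went against the labels, with 27.7 and 23.5 CPM in the libraries labelled shCRX against 12.5 and 12.3 CPM in controls. HD-MB03 shCRX replicate 2 stood apart: 257 genes had at least 20 counts there and at most 1 in replicate 1, and 0 genes did the reverse. Results that rest on it are given with and without it.

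The promoters shown here are those of the 4 members that passed a test in some comparison below, as the 250 bases before the RefSeq gene start on GRCh38.p14, 5′ to 3′ on the gene's strand. Capitals mark TAATTA, a core bound by many homeodomain proteins. UNCX is on the plus strand at chr7:1232622-1232871, ZIC2 on the plus strand at chr13:99981534-99981783, MEIS1 on the plus strand at chr2:66434875-66435124, and PAX6 on the minus strand at chr11:31817962-31818211, its most upstream start.
UNCX: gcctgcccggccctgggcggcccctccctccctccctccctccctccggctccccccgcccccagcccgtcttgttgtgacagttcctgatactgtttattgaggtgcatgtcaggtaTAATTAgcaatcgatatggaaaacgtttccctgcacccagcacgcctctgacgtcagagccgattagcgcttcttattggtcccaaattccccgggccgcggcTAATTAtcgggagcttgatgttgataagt
ZIC2: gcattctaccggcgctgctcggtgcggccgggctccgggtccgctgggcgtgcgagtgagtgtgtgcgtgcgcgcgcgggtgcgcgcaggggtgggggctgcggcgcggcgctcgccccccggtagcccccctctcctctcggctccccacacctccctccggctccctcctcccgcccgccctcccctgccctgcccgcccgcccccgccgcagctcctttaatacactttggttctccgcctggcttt
MEIS1: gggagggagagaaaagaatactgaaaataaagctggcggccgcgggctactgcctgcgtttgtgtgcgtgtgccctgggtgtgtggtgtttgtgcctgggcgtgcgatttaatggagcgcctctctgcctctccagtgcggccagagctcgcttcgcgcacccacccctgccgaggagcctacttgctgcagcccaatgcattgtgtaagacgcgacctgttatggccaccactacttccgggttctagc
PAX6: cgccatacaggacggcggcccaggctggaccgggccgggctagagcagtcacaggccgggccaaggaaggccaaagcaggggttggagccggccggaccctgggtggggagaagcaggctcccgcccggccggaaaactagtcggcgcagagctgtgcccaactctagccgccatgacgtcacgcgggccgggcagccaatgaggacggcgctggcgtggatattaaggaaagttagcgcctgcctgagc
These stretches held 58% G and C in UNCX, 75.6% in ZIC2, 59.6% in MEIS1 and 68.4% in PAX6. Motifs were searched on both strands in windows from 250 bases before to 50 after the start, of which the 10 members had 19, 9 of them at PAX6. TAATTA was in 1 member window, that of UNCX, which held it 132 and 29 bases before the start, against 4.84% of 35116 windows in the table. TAATCC, the core bound by OTX2 and CRX, was in 0 of the 19 member windows, against 6.36% of all. The E-box CAGATG, of the kind bound by ATOH1 and NEUROD1, was in 2 windows, both at internal starts of PAX6, against 14.7% of all. CAGCTG, a palindromic E-box, was in 1 window, that of EOMES, against 17.9% of all. A match of letters is a description and not a bound site.

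The data split the members into 5 with few or no reads and 5 with measurable levels. ATOH1, EOMES, LMX1A, LMX1B and BARHL1 did not pass the filter on low counts, and PAX6, ZIC1, ZIC2, MEIS1 and UNCX did. In bulk libraries, fewer cells with a transcript and less of it per cell cannot be told apart. ATOH1 had 0 counts in 10 of 10 libraries. The floor of 3 counts over a group corresponds to 0.153 CPM in D425 shCRX, 0.0726 in D425 controls, 0.107 in HD-MB03 shCRX and 0.791 in HD-MB03 controls. It was thus least strict in HD-MB03 controls. EOMES had 3 counts in HD-MB03 shCRX replicate 2 and 0 elsewhere. BARHL1 had 1 count, in D425 shCRX replicate 2. The early granule progenitor factors ATOH1 and BARHL1 and the brush cell factor EOMES were thus at or near 0 in both lines.

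Of the LIM-homeodomain pair, LMX1A had 1, 0 and 1 counts in D425 shCRX, against 7 and 1 in D425 parental and 4 in D425 vector libraries. It had 1 and 4 counts in HD-MB03 shCRX, against 0 and 0 in HD-MB03 controls. LMX1A was therefore seen in 7 of 10 libraries, never above 0.391 CPM. LMX1B had 54 counts in HD-MB03 shCRX replicate 2, or 3.86 CPM, and 0 counts in replicate 1, a library of about the same depth. Its counts were 0, 0 and 0 in D425 shCRX, 0, 0 and 1 in D425 controls, and 0 and 0 in HD-MB03 controls. Nearly all LMX1B reads of the series thus lie in the 1 library that stood apart.

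**Figure D1:**
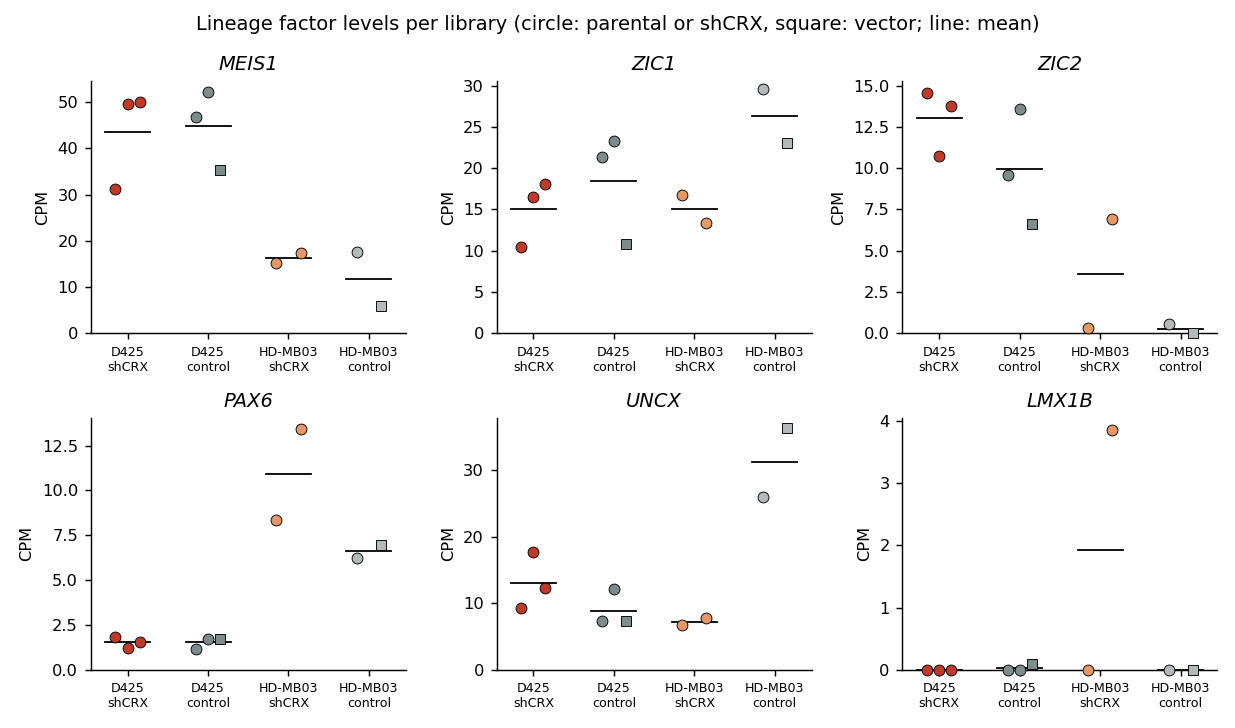
CPM of MEIS1, ZIC1, ZIC2, PAX6, UNCX and LMX1B in each library, 1 panel a gene, with D425 shCRX, D425 control, HD-MB03 shCRX and HD-MB03 control from left to right. MEIS1 and PAX6 separate the lines in every library, while LMX1B is high in a single HD-MB03 shCRX library.

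Levels were ordered between genes on CPM per kb of the longest annotated transcript. In D425, over 6 libraries, MEIS1 led at 8.65 ± 1.71 CPM per kb, followed by UNCX at 5.37 ± 1.94, ZIC2 at 3.85 ± 1.03 and ZIC1 at 3.20 ± 1.02 (SD, n = 6). Neighbours among these 4 overlapped in range, and the order of UNCX, ZIC2 and ZIC1 is not separated beyond their spread. The lowest MEIS1 value, 6.11 CPM per kb, lay above the highest of ZIC2 (4.88) and of ZIC1 (4.44). Compared within libraries, MEIS1 was above UNCX in each D425 library. PAX6 came far lower, at 0.210 ± 0.0375 CPM per kb, and its range overlapped neither that of ZIC1 above it nor that of LMX1A below it.

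In HD-MB03, over 4 libraries, UNCX came first at 9.38 ± 7.07 CPM per kb, before ZIC1 at 3.95 ± 1.37, MEIS1 at 2.75 ± 1.08 and PAX6 at 1.20 ± 0.446 (SD, n = 4). ZIC2 followed at 0.649 ± 1.12 and LMX1B at 0.166 ± 0.332, both set by shCRX replicate 2. Every pair of neighbours in this order overlapped in range. The wide SD of UNCX comes with a gap between the arms of HD-MB03 that is described below.

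The line in which a member was high was the clearest pattern: ZIC2 and MEIS1 were higher in D425 than in HD-MB03, and PAX6 was lower. The comparison took the mean of the 2 arms of each line, so that an additive difference between the sets of library numbers cancels. In edgeR's quasi-likelihood test with Benjamini-Hochberg adjustment, 3 of the 5 tested members passed, 2 higher and 1 lower. Over all genes tested the share was 46.0%, so 3 of 5 is not far from what any gene showed. The median log2 difference was -0.26 over the tested members and 0.05 over all genes.

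MEIS1 was at 31.2, 49.6 and 50.1 CPM in D425 shCRX and at 46.9, 52.3 and 35.3 CPM in D425 controls. In HD-MB03 it was at 15.3 and 17.4 CPM in shCRX, against 17.7 and 5.89 CPM in the parental and vector controls. The lowest D425 library lay above the highest HD-MB03 library. The log2 difference was 1.67 ± 0.26 (SE; adjusted p = 2.56e-04, edgeR). Within the low set of library numbers it was 1.87 (adjusted p = 0.00405, edgeR) and within the high set 1.46 (adjusted p = 0.00638, edgeR).

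PAX6 ran the other way. Its levels were 1.84, 1.24 and 1.53 CPM in D425 shCRX and 1.17, 1.69 and 1.72 CPM in D425 controls. HD-MB03 had 8.35 and 13.4 CPM in shCRX, against 6.24 and 6.96 CPM in controls. No D425 library reached the lowest HD-MB03 library, and the log2 difference was -2.45 ± 0.30 (SE; adjusted p = 3.58e-05, edgeR). It was -2.06 within the low set (adjusted p = 0.00556, edgeR) and -2.83 within the high set (adjusted p = 1.65e-04, edgeR). PAX6 overlaps ELP4 on the opposite strand, and reads of the 2 genes cannot be told apart where the counting ignored strand.

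ZIC2 was at 14.6, 10.7 and 13.8 CPM in D425 shCRX and at 9.62, 13.6 and 6.62 CPM in D425 controls. HD-MB03 held 4 counts (0.285 CPM) and 97 counts (6.94 CPM) in shCRX replicates 1 and 2, against 1 and 0 counts in the parental and vector controls. Apart from shCRX replicate 2, the HD-MB03 libraries were close to 0, and only that library overlapped the D425 range. The log2 difference was 3.51 ± 0.88 (SE; adjusted p = 0.00708, edgeR), and 5.30 without that library (adjusted p = 1.32e-05, edgeR). It passed within the low set, at 5.56 (adjusted p = 0.0199, edgeR), and not within the high set, at 1.46 (adjusted p = 0.187, edgeR), where replicate 2 is 1 of 2 HD-MB03 libraries.

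ZIC1, the close relative of ZIC2, did not follow it. Levels were 10.4, 16.5 and 18.1 CPM in D425 shCRX, 21.4, 23.3 and 10.8 CPM in D425 controls, 16.8 and 13.3 CPM in HD-MB03 shCRX and 29.6 and 23.0 CPM in HD-MB03 controls. The lines overlapped, and the log2 difference was -0.26 with a 95% interval of -0.81 to 0.28 (adjusted p = 0.414, edgeR). UNCX also overlapped between the lines, with a log2 difference of -0.48 and an interval of -1.01 to 0.05 (adjusted p = 0.126, edgeR), though without D425 parental replicate 2 it passed at -0.63 (adjusted p = 0.0471, edgeR). In controls of both lines alone UNCX was lower in D425, at -1.81 (adjusted p = 0.00180, edgeR), and in shCRX libraries alone it was at 0.84 (adjusted p = 0.0845, edgeR). Within a single arm the lines also differ in their set of library numbers, so line and set cannot be told apart in these values. The intervals of the mean of the arms still allow a line difference of some size for both genes.

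Within each set of library numbers the arm differs together with the line. D425 shCRX against HD-MB03 controls gave 4 of 5 members, 2 higher and 2 lower, beside 30.7% of all genes tested. UNCX was the additional member, lower by 1.27 on the log2 scale (a log2 difference of -1.27, adjusted p = 0.0167, edgeR). D425 controls against HD-MB03 shCRX gave 2 of 5 members, 1 higher and 1 lower, beside 31.2% of all genes, and UNCX was at 0.30 there (adjusted p = 0.546, edgeR). UNCX thus had opposite signs of its line difference in the 2 sets, and only the first passed. ZIC1 changed sign as well, at -0.83 in the low set and 0.30 in the high set, and passed in neither.

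**Figure D2:**
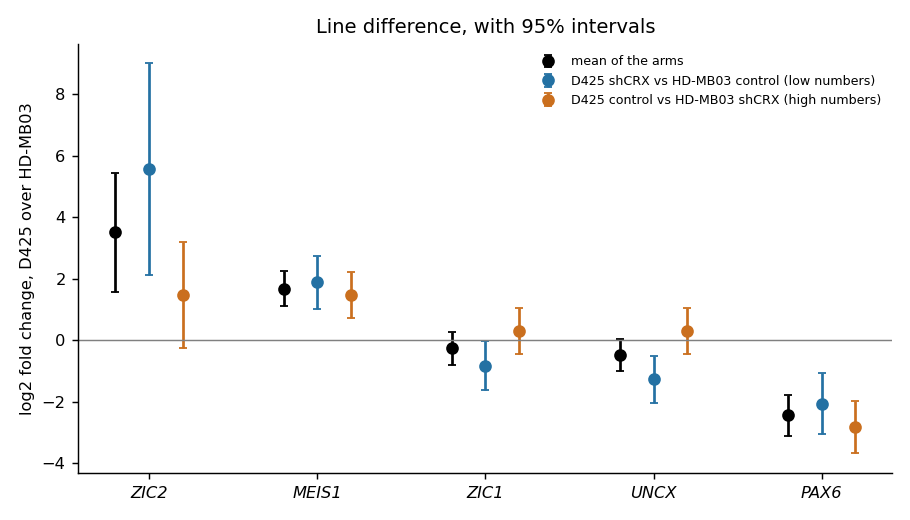
Log2 difference of D425 over HD-MB03 for the 5 tested members, with 95% intervals, as the mean of the arms and within each set of library numbers. MEIS1 stays above 0 and PAX6 below 0 in each comparison, while UNCX is at -1.27 in the low set and 0.30 in the high set. ZIC1 also changes sign, at -0.83 in the low set and 0.30 in the high set.

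Knockdown of CRX was the study's question, and in D425, where CRX fell by 1.10 on the log2 scale in the shCRX libraries (adjusted p = 0.0436, edgeR), no member passed the test. With edgeR, 0 of 5 tested members passed, beside 2.97% of all genes tested. At an unadjusted p under 0.05 the count was also 0, and limma-voom and DESeq2 called 0 as well. For CRX itself DESeq2 kept the call (adjusted p = 0.00745) and limma-voom did not (adjusted p = 0.0587). In edgeR it was lost with library totals, D425 libraries alone and libraries thinned to equal depth (adjusted p = 0.0650, 0.0853 and 0.102). It held with DESeq2 size factors, no filter, a mean of at least 1 CPM, or a correction for G and C content and length. The CRX log2 difference was -0.82 with parental and -1.58 with vector controls alone. The CRX call was lost in 9 of 10 fits that left out 1 library, at adjusted p of 0.0533 to 0.171 (edgeR), and held without D425 parental replicate 2 (adjusted p = 0.00890, edgeR). MEIS1 in D425 averaged 43.6 ± 10.7 CPM in shCRX and 44.8 ± 8.68 CPM in controls (SD, n = 3 each), and its log2 difference was -0.05 with an interval of -0.68 to 0.59. PAX6 averaged 1.54 ± 0.302 CPM in shCRX and 1.53 ± 0.309 CPM in controls (SD, n = 3 each). Its log2 difference of 0.05 had an interval of -0.82 to 0.92. Both genes had nearly equal means in the arms, but the intervals leave room for changes either way.

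The ZIC genes of D425 overlapped between arms. For ZIC1 the log2 difference was -0.32 ± 0.31 (SE; adjusted p = 0.658, edgeR). ZIC2 averaged 13.0 ± 2.02 CPM in shCRX and 9.95 ± 3.51 CPM in controls (SD, n = 3 each). Its log2 difference was 0.39, with an interval of -1.08 to 1.86. UNCX had 9.21, 17.8 and 12.3 CPM in D425 shCRX, against 7.27, 12.1 and 7.35 CPM in D425 controls. Its arms overlapped as well, at a log2 difference of 0.54 ± 0.31 (SE; adjusted p = 0.405, edgeR).

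In HD-MB03, UNCX was lower in the libraries labelled shCRX, in which CRX was not lower. The same test called 1 of 5 members there, beside 1.51% of all genes tested, of which 199 of 241 called genes were lower. UNCX was at 6.71 and 7.72 CPM in HD-MB03 shCRX, against 26.0 and 36.4 CPM in the parental and vector controls. The arms did not overlap, and UNCX fell by 2.11 ± 0.39 on the log2 scale (SE; adjusted p = 0.0216, edgeR). With 2 libraries an arm the call rests on each of them: without any 1 of these 4 libraries the adjusted p was between 0.0869 and 0.142, with log2 differences of -2.32 to -1.82.

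Base composition moved with this result. The longest transcript of UNCX holds 72.6% G and C, and only 16 tested genes hold more, beside a median of 48.2%. The 33 tested genes within 2 percentage points of UNCX had a median log2 difference of -1.66 in HD-MB03 and 1.59 in D425, and 7 of them were called lower in HD-MB03. Across all genes, Spearman's rho between the shCRX log2 difference and G and C content was 0.277 in D425 and -0.357 in HD-MB03, as a description over genes of the same libraries. After a correction for G and C content and length, UNCX was at -1.49 in HD-MB03 (adjusted p = 0.0744, edgeR) and at -0.40 in D425. The call was thus lost and the sign in D425 turned, and fold changes of genes as rich in G and C as UNCX ran the same way in each line.

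**Figure D3:**
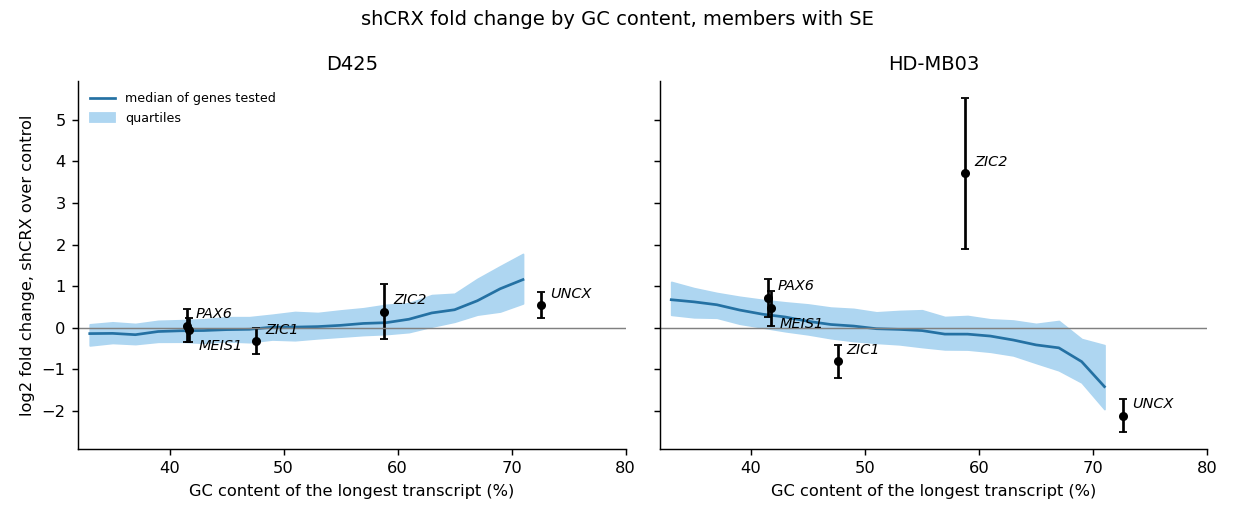
Median log2 difference of shCRX over control by transcript G and C content, for all tested genes in D425 and HD-MB03, with the tested members as points. Medians of genes rich in G and C lie above 0 in D425 and below 0 in HD-MB03, and UNCX lies at the rich end. In D425 it is at 0.54, under the median of 1.59 of genes within 2 percentage points of it. In HD-MB03 it is at -2.11, where that median is -1.66.

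The other tested members of HD-MB03 did not pass. PAX6 averaged 10.9 ± 3.60 CPM in shCRX and 6.60 ± 0.512 CPM in controls (SD, n = 2 each), a log2 difference of 0.72 ± 0.45 (SE; adjusted p = 0.442, edgeR). For ZIC1, with 16.8 and 13.3 CPM in shCRX against 29.6 and 23.0 CPM in controls, the test gave a log2 difference of -0.81 ± 0.40 (SE; adjusted p = 0.317, edgeR). The arms did not overlap for PAX6 or ZIC1, which with 2 against 2 libraries is a weak observation. MEIS1 had a log2 difference of 0.47 ± 0.42 (SE; adjusted p = 0.608, edgeR), and its arms overlapped. ZIC2 had 101 counts over the shCRX libraries against 1 over the controls, a ratio of 13.7 with a counting interval of 2.40 to 546. That ratio is set by replicate 2: the fitted log2 difference was 3.71 with it (adjusted p = 0.323, edgeR) and 0.12 without it.

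Averaged over the lines, 0 of 5 members passed with edgeR, beside 0.225% of all genes. Unadjusted p was under 0.05 for 2 of them, ZIC1 at a log2 difference of -0.57 and UNCX at -0.78 (adjusted p = 0.359 and 0.220, edgeR), and limma-voom and DESeq2 called 0. A direct test of whether the shCRX difference differs between the lines, D425 minus HD-MB03, called 1 of 5 members, beside 4.16% of all genes. That member was UNCX, at 2.65 ± 0.50 on the log2 scale (SE; adjusted p = 0.0122, edgeR), and at 1.09 (adjusted p = 0.273, edgeR) after the correction for G and C content and length. It was at 2.54 without HD-MB03 shCRX replicate 1, where the call was lost (adjusted p = 0.0675, edgeR). In the same test ZIC2 stood at -3.32 ± 2.04 with HD-MB03 shCRX replicate 2 and at 0.27 without it. The differences for PAX6, MEIS1 and ZIC1 were -0.67, -0.51 and 0.49, each with an interval that includes 0.

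Among paralogs and close relatives of the members, 7 of 13 genes were tested and 7 differed between the lines, 4 higher and 3 lower in D425, beside the 46.0% of all genes. Their median log2 difference was 1.88, also with genes at 0 counts set to a bound of 3 counts over the group. MEIS2, the nearest relative of MEIS1, was at 31.9 to 38.1 CPM in D425 shCRX and 34.2 to 43.9 CPM in D425 controls, against 7.49 and 9.08 CPM in HD-MB03 shCRX and 12.5 and 12.3 CPM in HD-MB03 controls. It was higher in D425 by 1.88 ± 0.17 on the log2 scale (SE; adjusted p = 2.79e-06, edgeR). MEIS3 had 389 counts over D425 shCRX and 457 over D425 controls, against 5 and 27 in the HD-MB03 shCRX replicates and 0 in both HD-MB03 controls (adjusted p = 4.54e-05, and 9.26e-06 without HD-MB03 shCRX replicate 2, edgeR). All 3 MEIS genes were thus higher in D425.

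TBR1, a T-box relative of EOMES and a marker of cerebellar nuclei neurons and of cortical projection neurons, was at 2.67, 6.19 and 3.06 CPM in D425 shCRX and at 3.30, 6.93 and 3.54 CPM in D425 controls. In HD-MB03 it was at 98.2 and 90.0 CPM in shCRX, against 95.1 and 146 CPM in controls. The gap between the lines was far wider than the spread within them, at -4.66 ± 0.27 on the log2 scale (SE; adjusted p = 5.35e-08, edgeR). BARHL2, the relative of BARHL1, had 458 counts over D425 libraries against 3 over HD-MB03 libraries, a ratio of 79.7 with a counting interval of 27.1 to 388 (adjusted p = 2.84e-05, edgeR). The relatives of EOMES and BARHL1 were therefore measured in a line although the members themselves were near 0 there.

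ZIC5 lies beside ZIC2 in the genome, and ZIC4 beside ZIC1. ZIC5 was singled out after its values were seen. It was at 12.4, 16.1 and 10.2 CPM in D425 shCRX and at 8.72, 10.3 and 8.53 CPM in D425 controls. In HD-MB03 it had 1 and 50 counts in shCRX replicates 1 and 2, against 0 and 0 in controls. ZIC5 and ZIC2 thus were both measured in every D425 library, and shared the near absence in 3 HD-MB03 libraries and the reads in shCRX replicate 2. ZIC5 also passed between the lines (adjusted p = 0.00257, and 3.43e-06 without that replicate, edgeR). ZIC4 did not pass the filter, with at most 6 counts in a library.

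**Figure D4:**
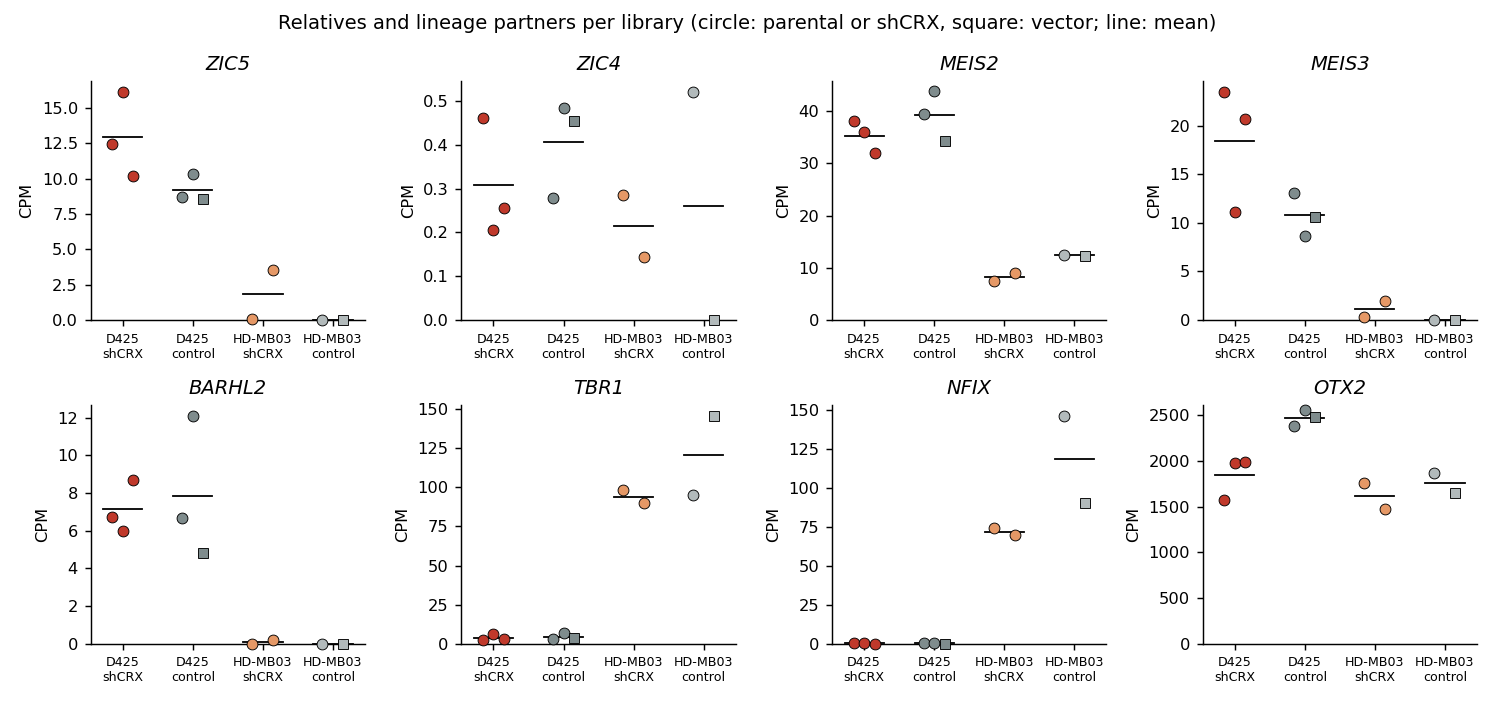
CPM in each library of ZIC5, ZIC4, MEIS2, MEIS3, BARHL2, TBR1, NFIX and OTX2, by line and arm, with shCRX left of control in each line. MEIS2, MEIS3 and BARHL2 are higher in D425 and TBR1 and NFIX higher in HD-MB03, and OTX2 is above 1480 CPM in every library.

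Of 17 cofactors of LIM-homeodomain, MEIS and helix-loop-helix factors, 9 passed between the lines, 1 higher and 8 lower in D425. The share was near the 46.0% of all genes, and without HD-MB03 shCRX replicate 2 LMO1 and TCF3 no longer passed (adjusted p = 0.104 and 0.0510, edgeR). The median log2 difference of the 17 was -0.34. LDB1, which bridges LIM-homeodomain proteins, was at -0.99 (adjusted p = 1.85e-04, edgeR) and its relative LDB2 at -4.93 (adjusted p = 8.80e-06, edgeR).

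Under shCRX, 2 of the 17 cofactors passed in D425, 1 in each direction, beside 2.97% of all genes. PKNOX2, a TALE homeodomain relative of the MEIS genes, was at 2.76, 2.48 and 3.83 CPM in D425 shCRX, against 11.8, 15.1 and 6.62 CPM in D425 controls. The arms did not overlap, and it fell by 1.92 ± 0.32 on the log2 scale (SE; adjusted p = 0.00844, edgeR). LMO1, a LIM-only protein that binds LDB factors, was at 10.0, 17.8 and 22.0 CPM in D425 shCRX, against 5.53, 4.59 and 2.63 CPM in D425 controls. It rose by 1.93 ± 0.37 on the log2 scale (SE; adjusted p = 0.0155, edgeR), again with no overlap of the arms. The LMO1 call was lost without shCRX replicate 3 (adjusted p = 0.0720) and without the D425 vector library (adjusted p = 0.0589), by edgeR in each case. In HD-MB03, PKNOX2 was at 0.04 and LMO1 at -1.53 (adjusted p = 0.98 and 0.115, edgeR). Tested directly, both differed between the lines, PKNOX2 by -1.95 (adjusted p = 0.0354, edgeR) and LMO1 by 3.46 (adjusted p = 0.00775, edgeR), but the PKNOX2 call was lost in 9 of 10 fits that left out 1 library, at adjusted p of 0.0543 to 0.132.

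Of 23 other genes of the rhombic lip, granule neuron and unipolar brush cell lineage, 15 were tested, and 10 differed between the lines, 1 higher and 9 lower in D425, beside 46.0% of all genes. Their median log2 difference was -0.76. NFIX, a nuclear factor I gene used in granule neuron maturation, had at most 5 counts in any D425 library, against 74.1 and 69.5 CPM in HD-MB03 shCRX and 146 and 90.5 CPM in HD-MB03 controls. NFIX was at -8.56 ± 0.30 on the log2 scale (SE; adjusted p = 1.51e-09, edgeR), NFIB at -3.20 and NFIA at -2.12 (adjusted p = 8.84e-08 and 3.05e-06, edgeR). All 3 nuclear factor I genes of the list were lower in D425. CBFA2T3, a corepressor gene, had 2 counts over D425 shCRX and 3 over D425 controls, against 550 over HD-MB03 shCRX and 104 over HD-MB03 controls (adjusted p = 9.86e-09, edgeR). The gene of this list that was higher in D425 was RELN, which encodes a protein secreted by granule neurons, with 1490 counts over D425 against 2 over HD-MB03, a ratio of 389 with a counting interval of 107 to 3213 (adjusted p = 2.00e-04, edgeR).

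OTX2, a homeobox gene of the rhombic lip and of Group 3 tumours, averaged 1848 ± 238 CPM in D425 shCRX and 2475 ± 92.3 CPM in D425 controls (SD, n = 3 each). It averaged 1617 ± 194 CPM in HD-MB03 shCRX and 1758 ± 155 CPM in HD-MB03 controls (SD, n = 2 each). OTX2 was thus high in all 10 libraries and did not pass between the lines, at a log2 difference of 0.34 (adjusted p = 0.0601, edgeR). NEUROD1, the factor of differentiating granule neurons, was at -1.99 in D425 against HD-MB03 (adjusted p = 0.00106, edgeR). Under shCRX, 1 of the 15 genes passed in D425, beside 2.97% of all genes. It was NFIB, at a log2 difference of -1.20 ± 0.27 (SE; adjusted p = 0.0312, edgeR), with 10.1, 13.2 and 10.7 CPM in shCRX against 34.0, 17.6 and 26.3 CPM in controls. The NFIB call was lost without parental replicate 1, the vector library, or shCRX replicate 1 or 3, at adjusted p of 0.0795 to 0.123, and with limma-voom (adjusted p = 0.0627).

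Genes of the cerebellar ventricular zone, the source of GABAergic neurons, were measured too. Of 15 matched genes 6 were tested, and 5 passed between the lines, 4 higher and 1 lower in D425, beside 46.0% of all genes. NEUROG1, a proneural helix-loop-helix factor, was at 40.4, 97.0 and 65.6 CPM in D425 shCRX and at 24.1, 42.5 and 28.5 CPM in D425 controls, and HD-MB03 held 2 counts in all. The ratio of the lines was 636 with a counting interval of 176 to 5257 (adjusted p = 1.55e-07, edgeR). Its relative NEUROG2 had 4 counts over HD-MB03 libraries, all in shCRX replicate 2, against 81, 22 and 41 counts in D425 shCRX and 60, 53 and 63 counts in D425 controls (adjusted p = 8.06e-05, and 5.08e-05 without that replicate, edgeR). FOXP2, a forkhead gene of Purkinje cells, was lower in D425, at -1.76 ± 0.37 on the log2 scale (SE; adjusted p = 0.00228, edgeR).

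Roof plate and patterning genes were mostly low. Of 9 roof plate and choroid plexus genes 5 were tested and 3 passed between the lines, 1 higher and 2 lower in D425, beside 46.0% of all genes. These 3 were MSX2, at -1.49 (adjusted p = 0.00170, edgeR), FOLR1 and GDF7. FOLR1 was at 2.04 with all libraries and at 2.47 without HD-MB03 shCRX replicate 2, where it no longer passed. GDF7 had 0 counts over D425 libraries against 17 over HD-MB03 libraries (adjusted p = 0.0264, edgeR). Without that replicate GDF7 was no longer among the genes tested. Of 16 midbrain and hindbrain patterning genes 3 were tested and 0 passed with edgeR, limma-voom or DESeq2, and at an unadjusted p under 0.05 the count was also 0. That count does not hold without HD-MB03 shCRX replicate 2, where HOXA3, named after its values were seen, passed as higher in D425 (adjusted p = 0.00423, edgeR). EN2, which shapes the midbrain-hindbrain border, had 8 and 62 counts in HD-MB03 shCRX replicates 1 and 2, against 0 and 0 in HD-MB03 controls. GBX2, another gene of that border, had 1 and 12 counts in the same shCRX replicates and 0 in every other library. In shCRX replicate 2 the epithelial markers EPCAM, KRT8, KRT18 and CDH1 summed to 30.7 CPM, against 0.143 CPM in replicate 1 and 0.520 to 1.61 CPM in HD-MB03 controls, and their part in the LMX1B, ZIC2 and ZIC5 reads was not tested.

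In HD-MB03, edgeR called 0 genes under shCRX among the paralogs, cofactors, rhombic lip, ventricular zone, patterning and roof plate genes. Unadjusted p was under 0.05 for 1 paralog, 4 cofactors and 3 rhombic lip genes. Limma-voom called 0 and DESeq2 called 2, both cofactors. In D425 the paralogs had 0 calls with edgeR and limma-voom and 1 with DESeq2, and 1 had an unadjusted p under 0.05. The ventricular zone genes had 0 calls with edgeR and limma-voom, 2 with DESeq2 and 3 of 6 at an unadjusted p under 0.05. The roof plate genes had 0 with edgeR and limma-voom, 1 with DESeq2 and 2 of 5 at an unadjusted p under 0.05. The patterning genes had 0 by each of these measures.

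The genes whose pattern was most like that of MEIS1, PAX6, ZIC2 or UNCX were found over all 10 libraries among 12943 protein-coding genes, by the root mean square difference of centred log2 CPM. For MEIS1 they were CHCHD10, TCEAL3 and SH2D5, the nearest at 0.264, beside an SD of 0.966 for MEIS1 itself. For PAX6 they were NUDT16, DLX4 and ATP8A2, the nearest at 0.272 beside an SD of 1.17. ATP8A2 was at 0 to 0.0908 CPM in D425 libraries and at 0.520 to 2.15 CPM in HD-MB03 libraries, so its likeness rests on few counts. For ZIC2 they were PPP1R13B, MFAP2 and MCOLN3, with the nearest at 0.502 beside an SD of 2.19. In HD-MB03 shCRX replicate 2 these were at 2.50, 4.86 and 7.72 CPM, against 0.214, 0 and 0.714 CPM in replicate 1. The search was not repeated without replicate 2. UNCX was nearest to MZT2A at 0.315, followed by SSNA1 and POLR2F. MZT2A was at 48.0, 56.6 and 51.3 CPM in D425 shCRX and 26.1, 39.5 and 27.9 CPM in D425 controls. In HD-MB03 it was at 34.8 and 47.0 CPM in shCRX, against 148 and 148 CPM in controls. As with UNCX, group means were highest in HD-MB03 controls and next in D425 shCRX, but the order of the other groups differed.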

How the data were processed

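Poly(A) RNA of 10 libraries was sequenced. Per the submitters' processing notes, the authors used bcl2fastq, HISAT2, HTSeq and DESeq2 with GRCh37 (hg19). Neither their versions nor the strand setting is given in the sources used here, and reads of overlapping or antisense genes cannot be told apart. The deposited values are raw read counts per gene, 1 file a library, with summary entries left out. Symbols came from the reference tables: 51996 of 57820 identifiers matched. Since the reference genome is GRCh38, it gave names, gene types, G and C content and lengths, and RefSeq promoters on GRCh38.p14.

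Counts were tested in R 4.3.3 with edgeR 4.0.16: TMM scaling, filterByExpr, 4 group means of line and arm with parental and vector libraries as control, a robust quasi-likelihood fit with 6 residual degrees of freedom, two-sided, over 16006 genes. The threshold was a Benjamini-Hochberg adjusted p of 0.05. The biological coefficient of variation was 26.0%. Poisson intervals are 95%, the floor is 3 counts, and both cover counting error only. The fit was tested on simulated counts with known changes.

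Named genes were the members, CRX and up to 4 called genes per list and comparison with the smallest p, plus the 3 genes most like each member. Some results under this rule are not reported here. ZIC5, RELN, OTX2, NEUROD1, EN2, GBX2, HOXA3, TCF3 and the 4 epithelial markers were named after their values were seen. Members and lists were chosen with earlier results of these data known. Of the listed genes, LHX1 and PECAM1 had no match. Alternatives with limma 3.58.1, DESeq2 1.42.0 and other filters, scalings and samples are given in the closing section. Same-numbered D425 parental and shCRX libraries shared only a number, so no block was used.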

Additional observations from a re-analysis of the deposited data

Results flagged for a closer look

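A direct test found that the shCRX difference itself differed between D425 and HD-MB03 for 4 of the genes named. UNCX differed by 2.65 on the log2 scale, at 0.54 in D425 and -2.11 in HD-MB03. After the correction for G and C content and length it differed by 1.09 (adjusted p = 0.273, edgeR) and the call was lost, as it was with parental or vector controls alone (adjusted p = 0.0915 and 0.143) and without HD-MB03 shCRX replicate 1 (adjusted p = 0.0675). CRX, the targeted gene, differed by -2.14, at -1.10 in D425 and 1.04 in HD-MB03, so its direction in the HD-MB03 libraries labelled shCRX, where the difference did not pass the test, goes against the labels. The CRX call was lost with limma-voom (adjusted p = 0.0729), parental controls alone (0.0862), vector controls alone (0.101), the replicate block (0.0537, edgeR) and without the parental library, the vector library or shCRX replicate 1 of HD-MB03 (0.0601 to 0.105, edgeR). PKNOX2 differed by -1.95, at -1.92 in D425 and 0.04 in HD-MB03. Its call was lost with limma-voom and with vector controls alone (adjusted p = 0.0684 and 0.384), and in 9 of 10 fits that left out 1 library. LMO1 differed by 3.46, at 1.93 in D425 and -1.53 in HD-MB03, and was not called with parental or vector controls alone (adjusted p = 0.0582 and 0.0990, edgeR). In each line the arms also differ in their set of library numbers, and the sets run opposite ways in the 2 lines, so a difference between sets cannot be told apart from these values.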

How the results depend on the processing

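Over 26 alternatives, 54 single-gene values gave 1239 alternative values: 1109 kept both direction and side of the threshold, 97 kept the direction but lost the call, 4 gained it and 29 changed sign. The 40 group means of the members stayed within 1 SD under library totals, but means of groups with 0 counts cannot move with the scaling. The count of members called kept within 1.5 times of the main count in D425 (0), in the mean of the lines (0) and between the lines (3). In HD-MB03 (1) it was 2 with no filter on low counts, 0 with parental controls alone, vector controls alone or the correction for G and C content and length, and 0 to 1 when each library was left out. The difference of the responses (1) gave 0 with parental controls alone, vector controls alone or that correction, and 0 to 1 when each library was left out. D425 shCRX against HD-MB03 controls (4) gave 2 with parental controls alone, 1 with vector controls alone, and 2 to 4 when each library was left out, with 2 without the HD-MB03 vector library. D425 controls against HD-MB03 shCRX (2) gave 4 with no filter and 1 with vector controls alone. Sign changes are given next. In D425, MEIS1 turned to 0.070 with library totals, 0.27 with vector controls alone and 0.083 with the correction, and PAX6 to -0.012 with no filter and -0.16 with vector controls alone. ZIC1 turned to 0.43 with vector controls alone and UNCX (0.54) to -0.40 with the correction. With each library left out, PAX6 ran between -0.15 and 0.16 and MEIS1 between -0.19 and 0.13. MEIS1 in HD-MB03 was -0.094 with the parental control alone and ran between -0.090 and 1.49 with libraries left out. In the mean of the lines, MEIS1 was -0.15 with parental controls alone and ran between -0.074 and 0.71, and CRX was 0.065 with library totals, 0.12 with parental controls alone, 0.060 thinned to equal depth and between -0.19 and 0.11 with libraries left out. The difference of the responses was 0.022 for MEIS1 with the correction and ran between -1.54 and 0.032, and for ZIC2 (-3.32) it ran between -7.81 and 0.27, positive without HD-MB03 shCRX replicate 2. Between the lines, ZIC1 was 0.30 and UNCX 0.30 within the high set, and UNCX (-0.48) was 0.84 and CRX (0.86) -0.21 in shCRX libraries alone. In controls alone UNCX passed, at -1.81 (adjusted p = 0.00180, edgeR). There, as in shCRX libraries alone, the line cannot be told apart from the set of library numbers. A fit with the replicate number as a block, possible for the 2 numbered D425 pairs, gave CRX 0.055 in the mean of the lines and called ZIC2 no longer between the lines (3.61, adjusted p = 0.0511, edgeR). The block also ended the D425 calls of CRX (-0.91, adjusted p = 0.234), LMO1 (1.36, adjusted p = 0.207) and NFIB (-1.14, adjusted p = 0.224), the CRX difference of the responses (-1.93, adjusted p = 0.0537) and the FOLR1 line difference (1.21, adjusted p = 0.212). Same-numbered D425 libraries deviated together with a correlation of 0.0137. It called 117 genes in D425, 127 in HD-MB03 and 286 in the difference of the responses, against 476, 241 and 666 without the block. DESeq2 called 967, 744 and 1322 in these comparisons, and 346 in the mean of the lines against 36. With no filter the counts were 1211 in D425, 790 in HD-MB03, 1579 in the difference and 405 in the mean of the lines. In the same order they were 104, 62, 227 and 2 with parental controls alone, and 8, 1, 3 and 0 with vector controls alone. D425 gave 292 thinned to equal depth, HD-MB03 495 fitted alone, and the difference 375 with the correction. The mean of the lines gave 18 with library totals, 18 with the block and 71 with the correction. Between the lines, vector controls alone gave 4614 against 7365, 1832 against 4920 in the low set and 2599 against 5001 in the high set, and parental controls alone 3052 in the low set. The causes of these changes were not tested. Depth limits HD-MB03 controls most, where 3 counts correspond to 1.44 and 1.53 CPM in a library.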
